A study of Caenorhabditis elegans with 12 samples.

Results

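The GFP- cells of mir-124 mutant Caenorhabditis elegans embryos were set against the GFP- cells of wild-type embryos, on 6 of the 12 Affymetrix arrays of the study. The members are the arrays that the labels name as GFP- cells of either strain, 3 of mutant and 3 of wild-type cells. The other 6 arrays hold the GFP+ cells of the same strains and are used for comparison. GFP was driven by the mir-124 promoter (pmir-124::GFP), mir-124 being a microRNA gene, so the GFP- cells are those in which the reporter was not seen to be active. Per the labels' protocols, the reporter went into lin-15 (n765) animals together with a plasmid that rescues lin-15, was integrated with X-rays and was outcrossed to N2, and the labels give this for the samples of both strains. Embryos were dissociated, their cells were kept in culture for 24 hours and 500000 cells a sample were sorted by flow cytometry, and the small yield of RNA was amplified before labelling. The mir-124 allele, and how the transgene entered the mutant strain, are not given in the sources used here. The labels name 1 mutant and 1 wild-type strain, so a difference due to mir-124 and one due to the rest of the genetic background cannot be told apart.

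MicroRNAs are short RNAs that guide Argonaute proteins to messenger RNAs, mostly through a stretch of bases near their 5′ end called the seed, and lower the output of those messengers. miR-124 is conserved across animals and is known for its place in nervous systems; in C. elegans its gene is active mainly in ciliated sensory neurons. Worms also make endogenous small interfering RNAs (siRNAs), in which the Argonaute ERGO-1 acts in the embryo upstream of further siRNAs that silence duplicated genes and pseudogenes. The comparison in GFP- cells asks which transcripts differ between the strains outside the cells in which the mir-124 promoter is active. None of the probe sets names mir-124 as its gene, and its loss was not measured on these arrays.

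Of the 6 arrays, 1 went against its label. The mean log2 signal over 65 cilium and intraflagellar transport genes, which mark ciliated sensory neurons, was 5.84, 5.80 and 5.85 in mutant GFP- cells, against 5.70, 5.65 and 8.85 in wild-type GFP- replicates 1, 2 and 3. The same mean was 8.07 to 8.82 in the 6 GFP+ arrays, so the library labelled wild-type GFP- replicate 3 lay above all of these. Over 66 body wall muscle genes the mean was 9.44, 9.03 and 8.997 in mutant GFP- cells, against 9.48, 8.995 and 7.71 in wild-type GFP- cells, and the GFP+ arrays read 7.605 to 7.90. cup-4, which marks coelomocytes, the scavenger cells of the body cavity, read 8.41 to 8.97 in mutant GFP- cells, against 8.24, 8.69 and 4.42 in wild-type GFP- cells. Across probe sets that library correlated with the other 5 GFP- arrays at 0.884 to 0.908, while these correlated among themselves at 0.968 to 0.989. Its polyadenylated control transcripts, which are spiked in, read 4.06 log2 units higher at their 3′ end than in their middle. In the other 5 GFP- arrays that gap was 1.665 to 2.25, and the wild-type GFP+ replicate 3 array shared the wide gap, at 4.22. Differences are therefore given with all 12 arrays in the fit and with 11, without wild-type GFP- replicate 3. A fit of 10 arrays, without both wild-type replicate 3 arrays, is added where it changes a call; its log2 differences in GFP- cells equal those of the 11 arrays and only the errors differ. The median log2 signal of an array was 5.39 to 5.51, and the number of arrays limits the precision. In sorted bulk samples like these, fewer cells of a type and less RNA per cell cannot be told apart.

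**Figure D1:**
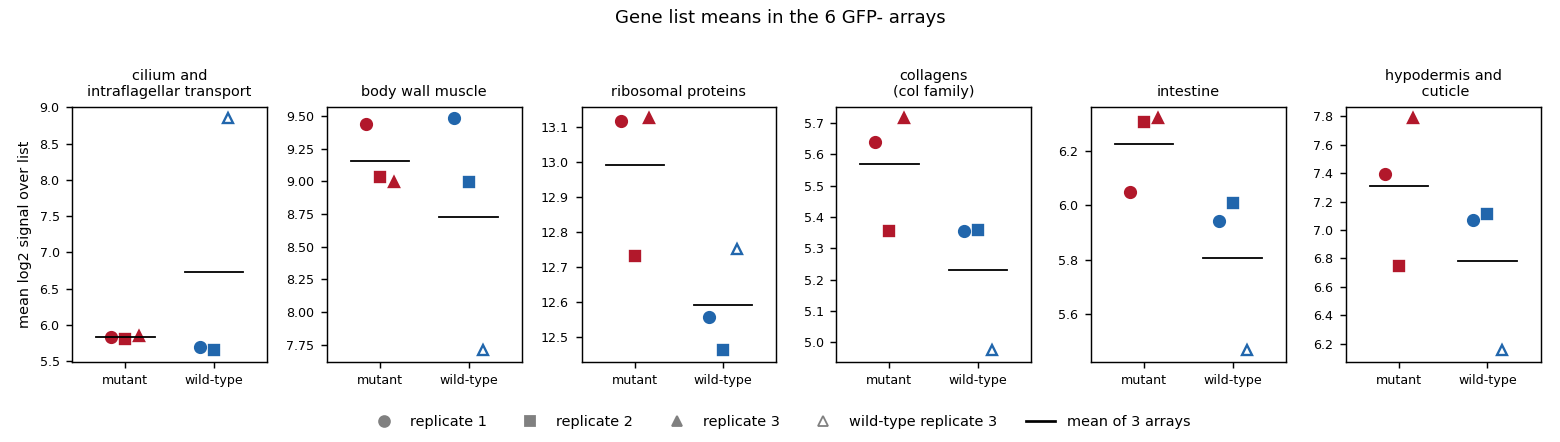
Mean log2 signal over 6 gene lists (y axis) in each mutant and wild-type GFP- array (points, shaped by replicate), with the mean of 3 arrays as a line; the y axes differ between panels and do not start at 0. The wild-type replicate 3 array (open triangle) stands apart at 8.85 for cilium genes and 7.71 for body wall muscle genes, while the other 5 arrays lie at 5.65 to 5.85 and 8.995 to 9.48.

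Few transcripts separated the strains in GFP- cells. With 12 arrays the G protein regulator gene rgs-5, F39E9.7, F55C9.3 and a probe set with no annotated gene rose in mutant cells, and the Argonaute gene ergo-1 fell. With 11 arrays trpa-1, the ion channel gene whose span holds mir-124, rose, as did a probe set annotated to several genes. The tests were limma's on the deposited log2 values of 22548 probe sets, with Benjamini-Hochberg adjustment and 0.05 as the threshold on the adjusted p. With 12 arrays 5 probe sets passed (0.0222% of those tested), 4 of them higher and 1 lower in mutant cells. With 11 arrays 2 passed (0.00887%), both higher, and with 10 arrays 4 passed (0.0177%), 3 higher and 1 lower. None of the 5 calls was among the 2, and the 4 were rgs-5 and ergo-1 of the 12-array calls together with both 11-array calls. The 12-array calls also rested on every other GFP- array. Leaving out any 1 besides wild-type replicate 3 ended them all, except that F55C9.3 still passed without mutant replicate 2. An unadjusted p under 0.05 was found for 1130 probe sets with 12 arrays (5.01%), for 618 with 11 (2.74%) and for 1201 with 10 (5.33%), where 1127 are expected when no probe set differs. Counted over the 17118 genes, 4 passed with 12 arrays (0.0234%), 1 with 11 (0.00584%) and 3 with 10 (0.0175%). No p-value here sees more than the spread between these arrays. The design text calls the triplicates biological, and the labels do not tie them to separate cultures or sorts, so the spread may be partly technical.

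**Figure D2:**
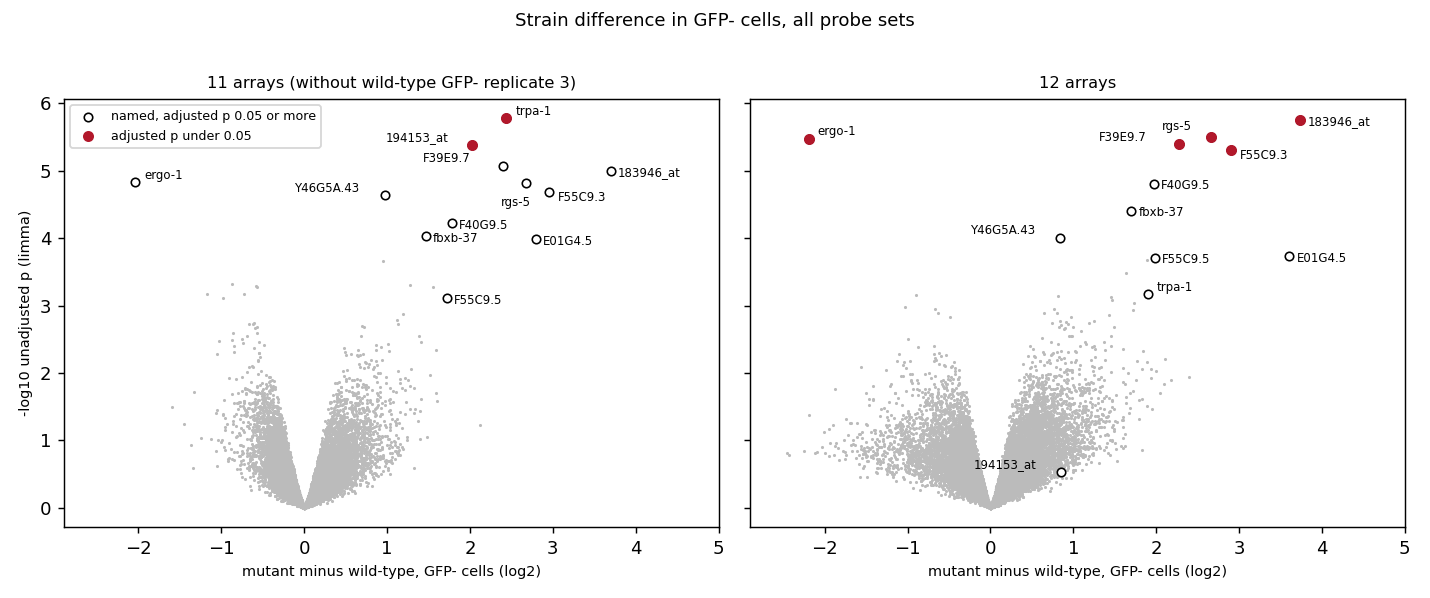
The log2 difference of mutant minus wild-type GFP- cells (x axis) against the negative log10 of limma's unadjusted p (y axis) for all probe sets, with 11 arrays on the left and 12 on the right. Filled red points passed an adjusted p of 0.05, open points are named in the text and did not; ergo-1 is the one named point far to the left, and trpa-1 is filled with 11 arrays and open with 12.

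trpa-1 encodes a channel of the TRPA family, known in worms for responses to cold and touch, and mir-124 lies inside its span on the RefSeq annotation of WBcel235. Its log2 signal was 7.79, 8.07 and 7.85 in mutant GFP- replicates 1, 2 and 3, against 5.51, 5.42 and 7.09 in wild-type GFP- cells. Every mutant array lay above every wild-type array, and the wild-type array closest to them was replicate 3, the library with the GFP+ profile. Without that library the log2 difference was 2.44 ± 0.24 (SE), with limma adjusted p = 0.0382, and the 10-array fit gave the same difference with an error of 0.147 (limma adjusted p = 0.000801). With 12 arrays the difference was 1.90 ± 0.397 and did not pass (limma adjusted p = 0.822). Leaving out any 1 of the other 5 GFP- arrays from the 11-array fit also ended the call, with adjusted p from limma between 0.0769 and 0.559. In GFP+ cells trpa-1 read 9.40, 9.70 and 9.54 in mutant, against 7.78, 7.53 and 6.86 in wild-type cells. Every mutant GFP+ array lay above every mutant GFP- array. The wild-type GFP+ arrays lay above wild-type GFP- replicates 1 and 2, but GFP- replicate 3, at 7.09, lay above the lowest of them. The strain difference in GFP+ cells passed with 11 arrays, at 2.16 ± 0.214 (limma adjusted p = 0.031), but not with 12, at 2.16 ± 0.397 (limma adjusted p = 0.834). With 11 arrays the difference between the fractions in the strain effect was 0.28 ± 0.322, and with 12 it was -0.26 ± 0.561 (limma adjusted p = 1 for each).

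Of 20 neighbours, 10 on each side in annotation order, 0 passed limma's adjusted p with 12, 11 or 10 arrays, and 0 had an unadjusted p under 0.05. Of all genes 3.11% were higher and 1.95% lower at that p with 12 arrays, and 1.3% and 1.51% with 11. With shares this small, a count of 0 among 20 genes tells little about the region. Their log2 differences with 11 arrays lay between -0.374 for slc-5A12, of a sodium-linked transporter family, and 0.458 for nhx-9, a sodium-proton exchanger gene; with 12 arrays the range was -1.039 to 0.987. The median over the 20 was -0.07 with 11 arrays and 0.03 with 12, beside -0.01 over all 17118 genes with either. nhx-9 read 6.03, 5.79 and 6.43 in mutant GFP- cells, against 5.32, 5.93 and 5.996 in wild-type GFP- cells, and the strains overlapped. ZK829.1 had the smallest p of the 20 with 11 arrays (0.082 before adjustment), at 4.19, 4.05 and 4.12 in mutant GFP- cells, against 4.22, 4.59 and 3.93 in wild-type GFP- cells.

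rgs-5 belongs to the regulators of G protein signalling, proteins that speed the return of G protein alpha subunits to their inactive state. It read 8.06, 7.85 and 7.90 in mutant GFP- cells, against 5.27, 5.23 and 5.31 in wild-type GFP- cells. The 3 wild-type arrays lay within a narrow range, the replicate 3 library included, and far under the 3 mutant arrays. Mutant GFP- cells averaged 7.93 ± 0.11 and wild-type GFP- cells 5.27 ± 0.038 (SD, n = 3 each). With 12 arrays the log2 difference was 2.66 ± 0.295 (SE; limma adjusted p = 0.0226). With 11 arrays it was 2.68 ± 0.338 and just missed the threshold (limma adjusted p = 0.0568), and with 10 arrays it passed again (2.68 ± 0.219, limma adjusted p = 0.00594). In GFP+ cells rgs-5 read 8.30, 8.198 and 7.49 in mutant, against 5.84, 5.75 and 4.71 in wild-type cells, a difference of 2.56 ± 0.295 (limma adjusted p = 0.0427 with 12 arrays).

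The other 15 measured genes of this family, out of 16 measured of 17 listed, did not pass. Over the 16, an unadjusted p under 0.05 was found for 1 higher and 3 lower genes with 12 arrays (3.11% and 1.95% of all genes) and for 2 higher and 2 lower with 11 (1.3% and 1.51% of all genes). Their median log2 difference was -0.12 with 12 arrays and -0.11 with 11. rgs-2, which in worms acts on the G protein alpha subunit GOA-1, read 8.12, 8.95 and 7.998 in mutant GFP- cells, against 9.19, 9.33 and 11.20 in wild-type GFP- cells. Its groups did not overlap, and the highest value was that of wild-type replicate 3; the difference with 11 arrays was -0.91 ± 0.295 and with 12 it was -1.56 ± 0.477 (limma adjusted p = 1 and 0.822). A pair of further rgs-2 probe sets had smaller differences, -0.39 and -0.338 with 11 arrays and -0.643 and -0.644 with 12. Of the 16, 6 had a positive difference with 12 arrays and 6 with 11, beside 8205 and 8178 of all 17118 genes.

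ergo-1 was the only call in the lower direction. Its probe set, whose name ends in _s_at and which can bind related transcripts, read 4.41, 4.24 and 3.86 in mutant GFP- cells, against 6.18, 6.24 and 6.67 in wild-type GFP- cells. All mutant arrays lay well under all wild-type arrays, and the replicate 3 library read highest of the 6. Mutant GFP- cells averaged 4.17 ± 0.285 and wild-type GFP- cells 6.36 ± 0.268 (SD, n = 3 each), a log2 difference of -2.19 ± 0.244 (SE) with 12 arrays (limma adjusted p = 0.0226). With 11 arrays it was -2.04 ± 0.257 (limma adjusted p = 0.0568) and with 10 arrays -2.04 ± 0.227 (limma adjusted p = 0.0416). The mutant level lay near the lower quartiles of the mutant GFP- arrays, 4.06 to 4.15, where signal is faint, so the size of the fall is uncertain. In GFP+ cells ergo-1 read 4.445, 4.44 and 4.114 in mutant, against 7.055, 6.40 and 6.19 in wild-type cells, and fell there too (-2.215 ± 0.244, limma adjusted p = 0.0427 with 12 arrays).

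No other measured gene of the siRNA machinery passed. Of 64 listed genes 59 were measured, and 1, ergo-1, passed. An unadjusted p under 0.05 was found for 5 higher and 1 lower of them with 12 arrays (3.11% and 1.95% of all genes) and for 3 higher and 1 lower with 11 arrays (1.3% and 1.51% of all genes). The 58 besides ergo-1 had log2 differences between -0.386 and 0.7 with 11 arrays and between -0.732 and 1.27 with 12, and the median of the 59 was 0.10 with 11 arrays and 0.13 with 12, beside -0.01 over all genes. rrf-3, the RNA-dependent RNA polymerase that makes the siRNAs bound by ERGO-1, read 6.08, 6.13 and 5.88 in mutant GFP- cells, against 5.59, 6.01 and 6.05 in wild-type GFP- cells, with overlapping groups. eri-1, an exonuclease of the same complex, read 7.24, 7.29 and 7.26 in mutant GFP- cells, against 7.18, 7.21 and 7.33 in wild-type GFP- cells, and overlapped as well.

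Among the rest, ppw-2, an Argonaute of the secondary siRNAs, read 6.77, 6.42 and 6.73 in mutant GFP- cells, against 6.03, 6.31 and 4.34 in wild-type GFP- cells. csr-1, an Argonaute of germline siRNAs, read 5.35, 5.53 and 5.14 in mutant GFP- cells, against 5.015, 5.02 and 4.44 in wild-type GFP- cells. In both the mutant arrays lay above the wild-type arrays, with the replicate 3 library lowest; the log2 differences with 11 arrays were 0.47 ± 0.207 for ppw-2 and 0.32 ± 0.151 for csr-1 (limma adjusted p = 1 for each), and with 12 arrays 1.08 ± 0.42 and 0.51 ± 0.179 (limma adjusted p = 0.822 for each). henn-1, the methyltransferase that protects the 3′ ends of ERGO-1-bound and Piwi-bound RNAs, read 5.91, 6.04 and 5.60 in mutant GFP- cells, against 6.19, 6.28 and 6.08 in wild-type GFP- cells, a difference of -0.39 ± 0.19 with 11 arrays and -0.335 ± 0.17 with 12 that did not pass (limma adjusted p = 1 and 0.822). In the microRNA machinery 22 genes were measured, of which 1 higher and 0 lower reached an unadjusted p under 0.05 with 12 arrays (3.11% and 1.95% of all genes) and likewise with 11 (1.3% and 1.51%). That gene with 11 arrays was nhl-2, a cofactor of microRNA silencing, at 4.89, 4.98 and 5.25 in mutant GFP- cells, against 4.75, 4.67 and 4.86 in wild-type GFP- cells (0.33 ± 0.138 with 11 arrays and 0.28 ± 0.126 with 12, limma adjusted p = 1 and 0.822).

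Genes recalled as targets of ERGO-1-class siRNAs were examined as a list; it was written from general knowledge without a source to check it against, and F39E9.7 and F55C9.3 were already known to differ in these arrays when it was written. Of 34 listed genes 23 were measured, of which 2, F39E9.7 and F55C9.3, passed with 12 arrays and 0 with 11. An unadjusted p under 0.05 was found for 5 higher and 0 lower genes with 12 arrays (3.11% and 1.95% of all genes) and for 6 higher and 0 lower with 11 arrays (1.3% and 1.51% of all genes). Mutant GFP- arrays lay above all 3 wild-type GFP- arrays in 5 of the 23, where 4.03% of all genes did so, and below them in 0. The other 17 genes had differences between -0.228 and 0.478 with 11 arrays and between -0.36 and 1.059 with 12, and the median of the 23 was 0.19 with 11 arrays and 0.03 with 12.

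F39E9.7, annotated as a pseudogene, read 8.14, 7.33 and 7.53 in mutant GFP- cells, against 5.53, 5.015 and 5.64 in wild-type GFP- cells. The groups were apart by more than the range of either, and the replicate 3 library was the highest of the wild-type arrays. Mutant GFP- cells averaged 7.67 ± 0.42 and wild-type GFP- cells 5.396 ± 0.335 (SD, n = 3 each). With 12 arrays it rose by 2.27 ± 0.258 (SE; limma adjusted p = 0.0226), beside 2.39 ± 0.282 with 11 (limma adjusted p = 0.0568). Its probe set name ends in _x_at, so related transcripts may add to the signal. GFP+ cells gave 7.42, 6.89 and 6.81 in mutant, against 5.03, 4.605 and 4.91 in wild-type cells (2.19 ± 0.258, limma adjusted p = 0.0427 with 12 arrays). That GFP+ difference also passed with 11 arrays (limma adjusted p = 0.0479) and did not with 10 (2.22 ± 0.287, limma adjusted p = 0.0968).

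F55C9.3 was high in mutant GFP- cells and low in GFP+ cells of both strains. It read 6.65, 5.31 and 6.99 in mutant GFP- cells, against 3.33, 3.39 and 3.51 in wild-type GFP- cells. GFP+ cells gave 3.504, 3.42 and 3.34 in mutant, against 3.24, 3.08 and 3.17 in wild-type cells, so the strains did not overlap there either, but the mutant GFP- arrays alone stood high. In GFP- cells the difference with 12 arrays was 2.91 ± 0.338 (limma adjusted p = 0.0226), and with 11 it was 2.955 ± 0.386 (limma adjusted p = 0.0659); in GFP+ cells it was 0.26 ± 0.338. The strain difference in GFP- less that in GFP+ cells was 2.65, with the smallest p of all probe sets in limma's test of that contrast (0.00022 before adjustment), and did not pass (limma adjusted p = 1). It passed once mutant GFP- replicate 2 was left out, at 3.15 (limma adjusted p = 0.000938), or at 3.20 from the 11-array fit (limma adjusted p = 0.0022). The wild-type values lay under the lower quartiles of their arrays, 4.102 to 4.22, so the size of the difference is uncertain.

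F55C9.5, a near neighbour of F55C9.3 in the RefSeq annotation, read 6.32, 4.92 and 5.65 in mutant GFP- cells, against 4.25, 3.56 and 3.12 in wild-type GFP- cells. The groups did not overlap, and replicate 2 was again the lowest mutant array; the difference of 1.99 ± 0.353 with 12 arrays and 1.72 ± 0.359 with 11 did not pass (limma adjusted p = 0.437 and 0.841). In GFP+ cells its arrays overlapped between the strains, with a difference of 0.27 ± 0.353.

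E01G4.5 did not pass with 12, 11 or 10 arrays. It read 11.15, 10.06 and 11.05 in mutant GFP- cells, against 8.45, 7.47 and 5.52 in wild-type GFP- cells. All mutant arrays were higher, and the wild-type arrays spread widely, with the replicate 3 library lowest. The difference with 12 arrays was 3.61 ± 0.638 (limma adjusted p = 0.437), and with 11 it was 2.80 ± 0.446 (limma adjusted p = 0.214). In GFP+ cells E01G4.5 read 8.23, 7.40 and 7.32 in mutant, against 6.36, 5.605 and 5.45 in wild-type cells. fbxb-37, an F-box gene of a family thought to bring proteins to ubiquitin ligases, read 5.72, 5.18 and 5.58 in mutant GFP- cells, against 4.29, 3.765 and 3.32 in wild-type GFP- cells. The groups were apart, and the difference with 12 arrays was 1.70 ± 0.249 (limma adjusted p = 0.126), and with 11 it was 1.46 ± 0.23 (limma adjusted p = 0.212). W05H12.2, the remaining member with an unadjusted p under 0.05 with 11 arrays, read 8.66, 8.54 and 7.43 in mutant GFP- cells, against 7.465, 7.00 and 8.30 in wild-type GFP- cells, and its groups overlapped.

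**Figure D3:**
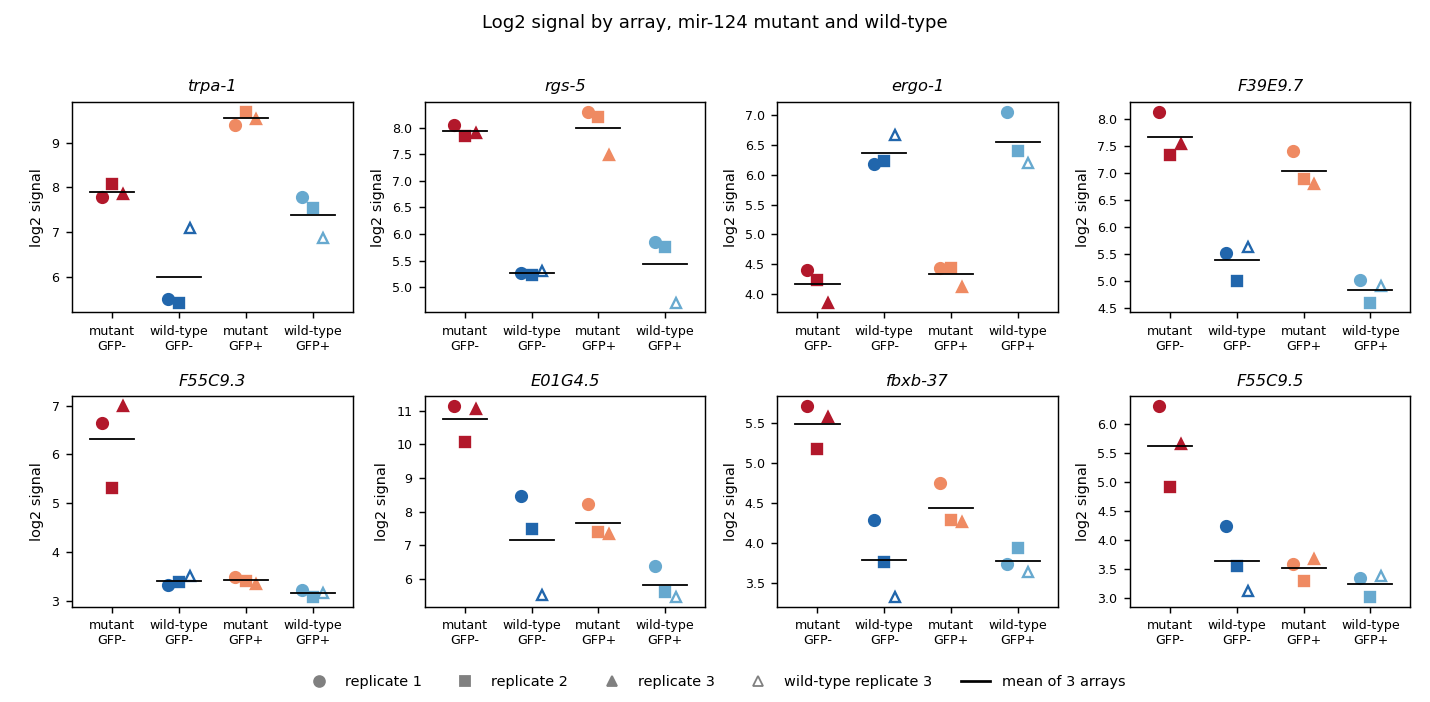
Log2 signal (y axis, scaled per gene and not starting at 0) of 8 genes in each array of the mutant and wild-type GFP- and GFP+ groups (x axis), with points shaped by replicate, wild-type replicate 3 drawn open and lines at the mean of 3 arrays. rgs-5, ergo-1, F39E9.7 and E01G4.5 separate the strains in both fractions, while F55C9.3 is high only in the mutant GFP- arrays (5.31 to 6.99).

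The broader duplicated families of F-box, BATH and MATH genes, to which fbxb-37 belongs, were taken as 1 list. Of 413 measured genes 0 passed limma's adjusted p with 12 or 11 arrays, and 14 higher and 10 lower reached an unadjusted p under 0.05 with 12 arrays (3.11% and 1.95% of all genes). With 11 arrays 7 were higher and 6 lower (1.3% and 1.51% of all genes), and the median was -0.01 with 11 arrays and 0.01 with 12. btb-1, of this list and annotated as a pseudogene, read 5.88, 5.43 and 7.13 in mutant GFP- cells, against 4.725, 4.38 and 4.18 in wild-type GFP- cells (1.60 ± 0.436 with 11 arrays and 1.72 ± 0.387 with 12, limma adjusted p = 1 and 0.822), with no overlap. fbxc-19 read 7.22, 6.55 and 7.05 in mutant GFP- cells, against 6.13, 6.03 and 6.75 in wild-type GFP- cells, where the replicate 3 library fell within the mutant range. The falls of smallest p with 11 arrays were fbxa-120, fbxa-64 and fbxa-146. Their differences were -0.749, -0.823 and -0.373 with 11 arrays, and -0.086, -0.616 and -0.533 with 12. About as many of the family's genes were faint as not: 50.6% had a mean below the array lower quartile, where 24% of all genes did.

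A pair of called probe sets name no single gene. Probe set 183946_at, with no annotated gene, read 7.84, 6.905 and 6.465 in mutant GFP- cells, against 3.56, 3.185 and 3.24 in wild-type GFP- cells, and the groups were far apart. It rose by 3.74 ± 0.389 with 12 arrays (limma adjusted p = 0.0226), while with 11 arrays the difference of 3.70 ± 0.446 missed the threshold (limma adjusted p = 0.0568). In GFP+ cells it read 6.14, 5.55 and 4.68 in mutant, against 3.26, 3.08 and 3.375 in wild-type cells. The wild-type GFP- values lay under the lower quartiles of their arrays, 4.102 to 4.22, so the size of the rise in GFP- cells is uncertain. Probe set 194153_at, annotated to several genes, read 6.28, 6.95 and 6.845 in mutant GFP- cells, against 4.702, 4.63 and 8.21 in wild-type GFP- cells. Its 12-array difference of 0.85 ± 0.76 carries that last value, and it rose with 11 arrays (2.03 ± 0.221, limma adjusted p = 0.047) and with 10 (limma adjusted p = 0.0356). GFP+ cells gave 4.22, 3.98 and 4.49 in mutant, against 3.81, 3.85 and 4.105 in wild-type cells. The 8.21 of wild-type GFP- replicate 3 thus lay above every other array, the GFP+ arrays included, and its cause was not tested.

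For a pair of further genes the adjusted p came near the threshold, with 12 arrays for F40G9.5 and with 11 and 10 for Y46G5A.43. Over the 26 settings run, F40G9.5 was called in 5 and Y46G5A.43 in 2. F40G9.5 read 8.835, 8.13 and 8.34 in mutant GFP- cells, against 6.98, 6.33 and 6.09 in wild-type GFP- cells, with a difference of 1.97 ± 0.26 with 12 arrays (limma adjusted p = 0.0584) and 1.78 ± 0.266 with 11 (limma adjusted p = 0.151). Y46G5A.43, annotated as a pseudogene, read 6.54, 6.49 and 6.765 in mutant GFP- cells, against 5.62, 5.64 and 6.005 in wild-type GFP- cells, a difference of 0.845 ± 0.138 with 12 arrays (limma adjusted p = 0.28) and 0.97 ± 0.129 with 11 (limma adjusted p = 0.066). In neither gene did the strains overlap, and both were higher in mutant GFP+ cells too, by 0.66 ± 0.26 and 0.85 ± 0.138 with 12 arrays.

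The leading genes were also looked at in GFP+ cells. These are on other arrays, but same-numbered arrays of a strain deviated together (correlations of 0.359 to 0.435 in mutant and 0.41 to 0.485 in wild-type cells), so the fractions are not independent and the counts in GFP+ cells are given as a description beside the shares over all genes. By the rule used for naming genes, the 15 higher and 15 lower genes with the smallest p in the 11-array fit and no overlap in GFP- cells were taken. That p also uses the spread between the GFP+ arrays, so the choice favoured genes with little spread there. The shares over all genes come from genes not chosen in this way. Of the 15 higher, 9 were also higher on every mutant GFP+ array than on every wild-type GFP+ array, where 2.85% of all genes were, and 0 were lower on every one. Of the 15 lower, 5 were lower on every mutant GFP+ array, where 3.91% of all genes were, and 1, ric-3, was higher on every one. The test of the difference between the fractions called 0 probe sets with 12, 11 or 10 arrays (limma adjusted p of 0.05). In the same order 329 (1.46%), 271 (1.2%) and 266 (1.18%) had an unadjusted p under 0.05, fewer than the 1127 expected when no probe set differs. These fits treated the fractions as independent. With strain and replicate as a random block on 12 arrays, 785 had an unadjusted p under 0.05 and 0 passed. The same strain comparison in GFP+ cells called 3 probe sets with 12 arrays (0.0133%), 4 with 11 (0.0177%) and 5 with 10 (0.0222%).

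asp-1, an aspartyl protease of the intestine, read 8.87, 9.53 and 9.59 in mutant GFP- cells, against 8.42, 7.85 and 5.42 in wild-type GFP- cells, with no overlap and the replicate 3 library lowest. Its difference with 12 arrays was 2.101 ± 0.611 (limma adjusted p = 0.822), and with 11 it was 1.19 ± 0.269 (limma adjusted p = 1). asp-3, another aspartyl protease, read 8.72, 9.38 and 9.34 in mutant GFP- cells, against 8.12, 8.45 and 7.31 in wild-type GFP- cells. ctsa-2, named as a cathepsin A relative, read 7.63, 7.70 and 8.65 in mutant GFP- cells, against 6.496, 6.68 and 5.62 in wild-type GFP- cells. Neither overlapped, and the differences were 0.86 for asp-3 and 1.41 for ctsa-2 with 11 arrays and 1.19 and 1.73 with 12. In GFP+ cells these 3 did not separate the strains, with differences of -0.184 for asp-1, 0.232 for asp-3 and -0.087 for ctsa-2 with 12 arrays.

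Of 52 listed intestine genes, asp-1 and asp-3 among them, 48 were measured and 0 passed; 9 higher and 0 lower reached an unadjusted p under 0.05 with 12 arrays (3.11% and 1.95% of all genes), and 5 higher and 0 lower with 11 (1.3% and 1.51% of all genes). In 10 of them every mutant GFP- array lay above every wild-type GFP- array, and in 0 below, where 4.03% and 4.07% of all genes did. The median difference was 0.25 with 12 arrays and 0.18 with 11. The mean over the list was 6.05, 6.31 and 6.32 in mutant GFP- cells, against 5.94, 6.01 and 5.47 in wild-type GFP- cells; the groups did not overlap, and mutant replicate 1 lay close to wild-type replicate 2. Of its defining markers, elt-2, the transcription factor that defines the intestine, read 6.15, 5.95 and 6.13 in mutant GFP- cells, against 5.80, 5.945 and 5.87 in wild-type GFP- cells, so that the lowest mutant and the highest wild-type array all but met. ges-1, a gut esterase, read 4.12, 4.08 and 4.23 in mutant GFP- cells, against 4.02, 4.22 and 4.04 in wild-type GFP- cells, with overlap and close to the lower quartiles of the arrays. act-5, also listed as an intestine marker, read 8.35, 9.48 and 9.22 in mutant GFP- cells, against 8.92, 8.74 and 6.17 in wild-type GFP- cells. The marker ifb-2 read 7.35, 8.52 and 9.66 in mutant GFP- cells, against 7.38, 7.43 and 5.91 in wild-type GFP- cells. Both overlapped between the strains, and the replicate 3 library was lowest in each. Whether the share of intestinal cells differed between the sorted samples was not tested.

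Among the remaining higher genes, cysl-2, of the cysteine synthase family, read 6.92, 6.66 and 6.63 in mutant GFP- cells, against 5.89, 5.68 and 4.36 in wild-type GFP- cells (0.95 ± 0.167 with 11 arrays and 1.43 ± 0.33 with 12, limma adjusted p = 0.412 and 0.822). nlt-1, a lipid transfer gene, read 6.85, 7.34 and 7.23 in mutant GFP- cells, against 5.64, 6.08 and 4.80 in wild-type GFP- cells (1.28 ± 0.25 with 11 arrays and 1.63 ± 0.31 with 12, limma adjusted p = 0.714 and 0.616). Both were apart between the strains in GFP- cells and not in GFP+ cells, where the differences were 0.146 and -0.348 with 12 arrays. C36A4.10 read 9.005, 8.98 and 8.67 in mutant GFP- cells, against 8.12, 7.63 and 8.33 in wild-type GFP- cells, a difference of 1.01 with 11 arrays and 0.86 with 12, and it was higher on every mutant GFP+ array as well.

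None of the listed collagens or hypodermis and cuticle genes passed with 12, 11 or 10 arrays. Of 128 measured collagens of the col family 0 passed; 16 higher and 0 lower reached an unadjusted p under 0.05 with 12 arrays (3.11% and 1.95% of all genes), and 3 higher and 0 lower with 11 (1.3% and 1.51% of all genes). Every mutant GFP- array lay above every wild-type GFP- array in 21 of them, where 4.03% of all genes did, and below in 0. The median difference was 0.25 with 12 arrays and 0.12 with 11. Their mean was 5.64, 5.36 and 5.71 in mutant GFP- cells, against 5.355, 5.36 and 4.98 in wild-type GFP- cells, so mutant replicate 2 could not be told from wild-type replicates 1 and 2. col-69 read 7.20, 6.72 and 6.535 in mutant GFP- cells, against 6.34, 5.995 and 5.30 in wild-type GFP- cells on one probe set (0.65 ± 0.221 with 11 arrays and 0.94 ± 0.264 with 12, limma adjusted p = 1 and 0.822), and -0.105 with 11 arrays and 0.035 with 12 on its other probe set. Of 57 hypodermis and cuticle genes 6 higher and 1 lower had an unadjusted p under 0.05 in the fit of 12 arrays (3.11% and 1.95% of all genes) and 0 higher and 2 lower in that of 11 (1.3% and 1.51%). The median was 0.37 with 12 arrays and 0.20 with 11. In this list the mean was 7.39, 6.74 and 7.79 in mutant GFP- cells, against 7.07, 7.11 and 6.155 in wild-type GFP- cells, and mutant replicate 2 lay under wild-type replicates 1 and 2. The marker dpy-7, a cuticle collagen, varied as much within the mutant, at 9.32, 7.47 and 9.99, against 8.45, 7.76 and 5.76 in wild-type GFP- cells.

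**Figure D4:**
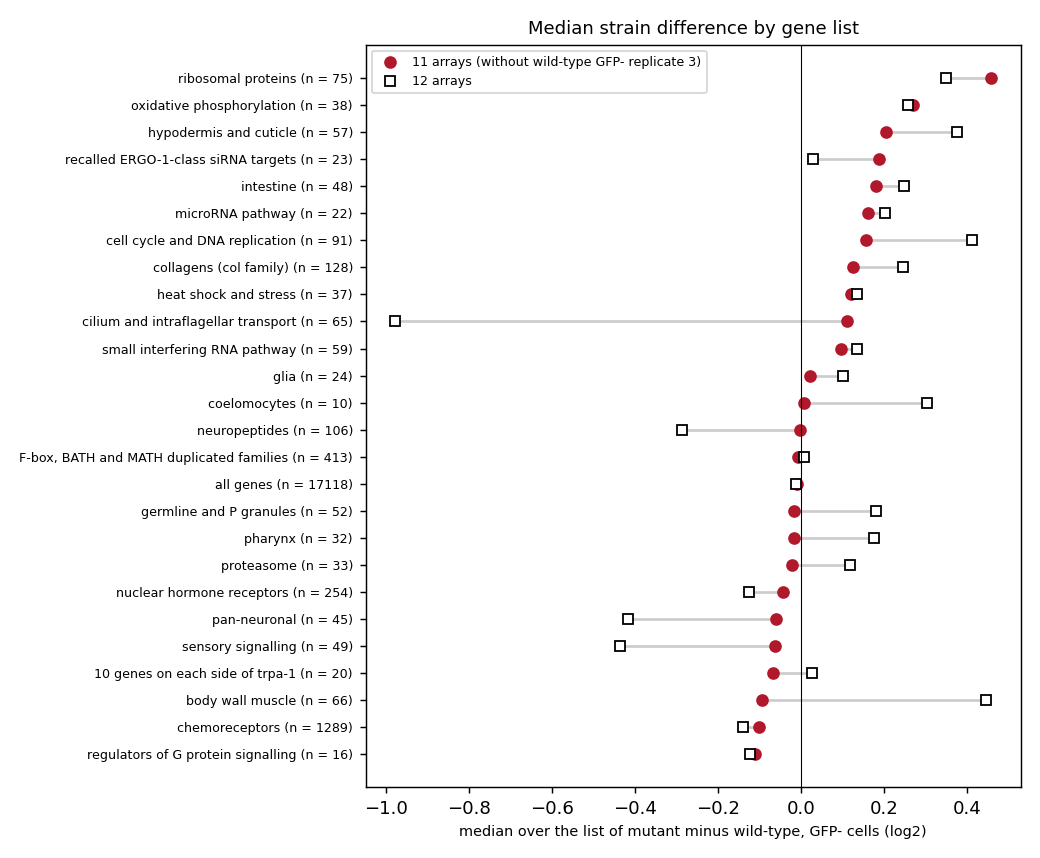
Median over each gene list of the log2 difference, mutant minus wild-type in GFP- cells (x axis), with 11 arrays (red circles) and with 12 (open squares), joined by a line; n is the number of measured genes. The cilium list moves to 0.11 with 11 arrays, against -0.98 with 12, and all genes lie at -0.01 with either.

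The medians of the cilium and muscle lists, which separate GFP+ from GFP- cells, changed sign with the replicate 3 library. Cilium genes had a median difference of -0.98 with 12 arrays, when 2 of 65 were higher, and 0.11 with 11, when 43 were higher. Of all 17118 genes 8205 were higher with 12 arrays and 8178 with 11. Body wall muscle genes had a median of 0.44 with 12 arrays and -0.09 with 11. Of the 66, 0 higher and 0 lower reached an unadjusted p under 0.05 with 12 arrays (3.11% and 1.95% of all genes). With 11 arrays 0 higher and 1 lower did (1.3% and 1.51% of all genes). osm-6, a subunit of the intraflagellar transport machinery of cilia, was lower in mutant GFP- cells with or without that library, at 5.47, 5.36 and 5.30 in mutant, against 5.88, 6.01 and 7.89 in wild-type cells. It differed by -0.57 ± 0.137 with 11 arrays and by -1.22 ± 0.421 with 12 (limma adjusted p = 1 and 0.822). che-3, the motor subunit of ciliary dynein, had a positive difference with 11 arrays and a negative one with 12 (0.85 ± 0.256 with 11 arrays and -0.78 ± 1.04 with 12, limma adjusted p = 1 and 0.874). Of 45 pan-neuronal genes 3 lower and 0 higher had an unadjusted p under 0.05 in the fit of 12 arrays (1.95% and 3.11% of all genes) and 2 lower and 0 higher in that of 11 (1.51% and 1.3%). These 2 were rab-3, the small GTPase of synaptic vesicles, and syd-2, a scaffold of the presynaptic site, with differences of -0.59 ± 0.231 and -0.535 ± 0.212 with 11 arrays (limma adjusted p = 1 for each) and -0.97 ± 0.31 and -0.52 ± 0.186 with 12 (limma adjusted p = 0.822 for each). A second probe set of syd-2 gave -0.094 and one of rab-3 -0.269 with 11 arrays, and 0.103 and -0.515 with 12, so the sizes were not shared by their probe sets.

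Most of the 15 lower genes were small differences that did not pass. try-8, named as a trypsin-like protease, read 6.44, 6.55 and 6.08 in mutant GFP- cells, against 7.205, 7.22 and 7.33 in wild-type GFP- cells (-0.86 ± 0.214 with 11 arrays and -0.90 ± 0.188 with 12, limma adjusted p = 1 and 0.822). clh-2, a chloride channel gene, read 5.455, 6.16 and 5.64 in mutant GFP- cells, against 6.64, 6.55 and 7.17 in wild-type GFP- cells (-0.84 ± 0.225 with 11 arrays and -1.04 ± 0.23 with 12, limma adjusted p = 1 and 0.822). ima-3, an importin alpha that carries proteins into the nucleus, read 9.75, 9.755 and 9.66 in mutant GFP- cells, against 10.19, 10.22 and 10.21 in wild-type GFP- cells (-0.48 ± 0.128 with 11 arrays and -0.485 ± 0.113 with 12, limma adjusted p = 1 and 0.822). In all 3 genes the strains were apart in GFP- cells with or without the replicate 3 library; the second probe set of ima-3 gave 0.141 with 11 arrays and 0.27 with 12, in the other direction, and that of clh-2 -0.515 and -0.523. pph-7 read 7.13, 6.99 and 6.69 in mutant GFP- cells, against 7.41, 7.96 and 8.43 in wild-type GFP- cells, a difference of -0.75 ± 0.24 with 11 arrays and -0.998 ± 0.261 with 12 (limma adjusted p = 1 and 0.822). It was lower on every mutant GFP+ array too, with a difference of -1.63 with 12 arrays. ZK1037.6, Y70C5B.1, mfsd-8.2, F20D6.10, T23B3.5 and the chemoreceptor genes srr-8 and srh-61 had differences between -0.671 and -0.418 with 11 arrays and between -0.747 and -0.335 with 12. The second probe set of Y70C5B.1 gave 0.212 with 11 arrays and 0.267 with 12, in the other direction.

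None of the listed ribosomal protein genes passed with 12, 11 or 10 arrays. Of 75 measured genes 74 had a positive difference with 12 arrays and with 11, where 8205 and 8178 of all 17118 genes did. Of the 75, 0 passed the adjusted p with 12, 11 or 10 arrays. An unadjusted p under 0.05 was found for 14 higher and 0 lower with 12 arrays (3.11% and 1.95% of all genes), for 2 and 0 with 11 (1.3% and 1.51%) and for 41 and 0 with 10 (3.06% and 2.45%). The median difference was 0.35 with 12 arrays and 0.46 with 11. After a further quantile normalization between arrays it was 0.06 and 0.05. Array means were 13.12, 12.73 and 13.12 in mutant GFP- cells, against 12.56, 12.46 and 12.75 in wild-type GFP- cells. The wild-type replicate 3 library lay just above mutant replicate 2, and without it the groups were apart. rpl-23, of the large subunit, read 14.12, 13.75 and 14.13 in mutant GFP- cells, against 13.17, 13.10 and 13.06 in wild-type GFP- cells (0.87 ± 0.252 with 11 arrays and 0.89 ± 0.22 with 12, limma adjusted p = 1 and 0.822). In GFP+ cells the array means were 12.58, 12.23 and 12.06 in mutant, against 11.89, 11.77 and 12.88 in wild-type cells, the last being replicate 3, with the wide polyadenylated control gap. With that array the median difference over the list in GFP+ cells was 0.09. In 0 of the 75 did the strains separate, where 2.85% of all genes were higher and 3.91% lower on every mutant GFP+ array. The means of the 2 other wild-type GFP+ arrays lay under all 3 mutant ones. rpl-23 differed there by 0.73 ± 0.22 with 12 arrays and 0.965 ± 0.188 with 10 (limma adjusted p = 1 and 0.679). The oxidative phosphorylation list of 38 measured genes had a median of 0.27 with 11 arrays and 0.26 with 12. At an unadjusted p under 0.05 it held 1 higher and 0 lower with 12 arrays (3.11% and 1.95% of all genes). With 11 arrays it held 2 higher and 1 lower (1.3% and 1.51% of all genes).

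The chemoreceptor families are large families of G protein-coupled receptors of sensory neurons, of which 1289 genes were measured and 0 passed with 12, 11 or 10 arrays. A positive difference was found for 205 with 12 arrays and 303 with 11, beside 8205 and 8178 of all 17118 genes. With 12 arrays 58 lower and 0 higher had an unadjusted p under 0.05 (4.5%, beside 1.95% of all genes lower), and with 11 arrays 34 lower and 5 higher (2.64% lower, beside 1.51%). In 131 (10.2%) every mutant GFP- array lay below every wild-type GFP- array, where 4.07% of all genes did, and in 5 above. The median was -0.14 with 12 arrays and -0.10 with 11, and 52.5% of these genes had a mean below the array lower quartile, where signal is close to background. Of all genes 24% were as faint, and of 254 nuclear hormone receptor genes 27.2% were. At an unadjusted p under 0.05 these receptor genes had 11 lower and 0 higher with 12 arrays (1.95% and 3.11% of all genes). With 11 arrays they had 8 lower and 1 higher (1.51% and 1.3% of all genes). Whether background differed between the arrays was not tested.

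Cell cycle and DNA replication genes had 10 higher and 0 lower of 91 at an unadjusted p under 0.05 with 12 arrays (3.11% and 1.95% of all genes) and 1 higher and 0 lower with 11 (1.3% and 1.51%), and the median was 0.41 with 12 arrays and 0.16 with 11. The 1 gene with 11 arrays was hcp-4, which builds the kinetochore, at 7.36, 6.75 and 7.51 in mutant GFP- cells, against 6.725, 6.42 and 5.06 in wild-type GFP- cells, a difference of 0.64 ± 0.236 with 11 arrays and 1.14 ± 0.375 with 12 (limma adjusted p = 1 and 0.822). Of 37 heat shock and stress genes 4 higher and 0 lower reached an unadjusted p under 0.05 with 12 arrays (3.11% and 1.95% of all genes) and 2 higher and 1 lower with 11 (1.3% and 1.51%). ctl-2, a catalase of peroxisomes, read 7.33, 7.85 and 7.17 in mutant GFP- cells, against 6.685, 6.93 and 4.78 in wild-type GFP- cells (0.64 ± 0.209 with 11 arrays and 1.32 ± 0.459 with 12, limma adjusted p = 1 and 0.822). Germline, glia, pharynx, coelomocyte, proteasome, neuropeptide and sensory signalling lists had medians between -0.06 and 0.02 with 11 arrays. With 12 arrays these medians were -0.44 for sensory signalling, -0.29 for neuropeptides, 0.10 for glia, 0.12 for the proteasome, 0.18 for pharynx, 0.18 for germline and 0.30 for coelomocytes.

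The genes of the rescue plasmid served as a check on the transgene. lin-15A read 10.55, 10.49 and 10.44 in mutant GFP- cells, against 10.65, 10.05 and 11.74 in wild-type GFP- cells, and the strains overlapped. lin-15B read 9.06, 8.835 and 9.86 in mutant GFP- cells, against 9.298, 8.67 and 9.74 in wild-type GFP- cells, and overlapped too. Differences with 11 arrays were 0.15 ± 0.247 for lin-15A and 0.27 ± 0.37 for lin-15B (limma adjusted p = 1 for each), and with 12 arrays the sign turned for lin-15A (-0.31 ± 0.36), while lin-15B stood at 0.02 ± 0.358. No difference in these transgene genes between the strains was detectable with these arrays.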

How the data were processed

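The study measured transcripts with Affymetrix C. elegans arrays in sorted embryonic cells. The authors deposited log2 values, 1 per probe set and array; tools named in the submitters' processing notes are affy, limma, MAS5 and RMA, with no role or version, so which of them made the table is not settled here. No further scaling was applied. Of 22625 probe sets 77 controls were set aside and 22548 tested; 20766 had 1 annotated gene, 887 several and 895 none. For each of 17118 genes the brightest of its single-gene probe sets (mean over all arrays) was used. Looking the symbols up in RefSeq (WBcel235) altered 0 of them. No coordinates are printed, because no source used here gives the files' build.

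Differences were fitted in R 4.3.3 with limma 3.58.1 (a mean for each of 4 groups, eBayes, 2-sided, Benjamini-Hochberg over all tested probe sets, threshold 0.05), and were tested on simulated data first. The p-values are model p-values across all probe sets. Gene lists are described by counts and medians, with no test of the list. Named genes were all calls of the 12-, 11- or 10-array fit; the 15 rises and 15 falls with the smallest p in the 11-array fit and no overlap between the strains with or without wild-type GFP- replicate 3; up to 3 genes a list and direction with unadjusted p under 0.05; trpa-1 and its neighbours; lin-15A and lin-15B; and up to 8 genes of each siRNA list. rrf-3, eri-1 and the second probe sets of named genes were added after their values were seen. Members, lists and rules were chosen with earlier results of these data known. Same-numbered arrays of the strains in GFP- cells did not deviate together, so no block was used. Those of the GFP- and GFP+ fractions of a strain did (correlations of 0.359 to 0.485), and the main fits did not model this. Alternatives were other sets of arrays, quantile normalization, a median shift, a filter on the dimmest 25%, array weights, trended and robust eBayes, replicate blocks, 1 probe set a gene, and leaving out each GFP- array. No GFP+ array was left out alone. Figures used matplotlib 3.10.9.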

Additional observations from a re-analysis of the deposited data

Results flagged for a closer look

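ric-3, which encodes a chaperone of nicotinic acetylcholine receptors, had strain differences of opposite sign in the fractions, and neither passed. With 12 arrays they were -0.686 ± 0.186 in GFP- cells (limma adjusted p = 0.822) and 0.232 ± 0.186 in GFP+ cells (limma unadjusted p = 0.241). It read 9.05, 9.32 and 8.46 in mutant GFP- cells, against 9.625, 9.63 and 9.63 in wild-type GFP- cells, so every mutant array was lower. In GFP+ cells it read 10.25, 10.22 and 10.21 in mutant, against 9.97, 9.93 and 10.08 in wild-type cells, so every mutant array was higher. The strain difference in GFP- less that in GFP+ cells was -0.918 ± 0.264 with 12 arrays, and limma's test of it did not pass (limma adjusted p = 1). A second ric-3 probe set had a strain difference in GFP- cells of -0.63 with 12 arrays and 0.009 with 11.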

How the results depend on the processing

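The number of called probe sets was small under every setting and moved with the arrays used: 5 with 12 arrays, 2 with 11 (without wild-type GFP- replicate 3), 4 with 10, 1 with the 6 GFP- arrays alone, 1 with the 5 without that library (rgs-5 in both), 9 with array weights, 6 after quantile normalization, 5 after a median shift, 4 without the dimmest 25%, and 6 with trended and 5 with robust eBayes. Leaving out 1 of the other 5 GFP- arrays gave 0 to 1 calls from 12 arrays (the 1 is F55C9.3, without mutant replicate 2) and 0 to 2 from 11, so every call but that of F55C9.3 was lost from the 12 arrays when any of these 5 was left out. Where this left a lone wild-type GFP- array, it was assumed to vary like the other groups. Whether the replicate number pairs the strains in GFP- cells is not settled. The correlations of deviations were 0.232, -0.07 and -0.029, from group means that include wild-type GFP- replicate 3. With the number as a replicate block 6 probe sets passed with 12 arrays and 8 with 11, E01G4.5 among the 8 (2.86, limma adjusted p = 0.0143). With strain and replicate as a random block 6 passed. Of 26 settings rgs-5 was called in 14, ergo-1 in 13, F39E9.7 in 12 and trpa-1 in 5, and of the 25 that tested them F55C9.3 was called in 11, 183946_at in 10 and 194153_at in 5, and the differences kept their sign for trpa-1 (1.605 to 2.54), rgs-5 (2.6 to 2.89), ergo-1 (-2.31 to -1.88), F39E9.7 (2.03 to 2.65) and F55C9.3 (2.57 to 3.46). The difference between the fractions called 1 probe set, F55C9.3, when mutant GFP- replicate 2 was left out of the 12 or the 11 arrays. It called 0 in the other settings that tested it with more than 1 array a group. No GFP+ array was left out alone, so how far this difference rests on single GFP+ arrays was not tested. Of 1494 single-gene values under alternatives, 1391 kept their direction and side of the threshold, 68 lost the call, 20 gained one and 15 changed sign. Most of the 60 genes and probe sets counted were not called with 12 arrays, so most of the 1391 had no call to lose. All 68 lost calls were of the 5 probe sets called with 12 arrays.

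The sign changed for lin-15A, at 0.149 with 11 arrays, 10 arrays and the 5 GFP- arrays alone, 0.193 with array weights, 0.151 with 11 arrays and the replicate block, and 0.121, 0.151, 0.176 and 0.45 with 1 more array left out. It changed for lin-15B, at -0.066 after quantile normalization and -0.289, -0.266, -0.038 and -0.048 with an array left out (highest 0.225 from 12 arrays and 0.583 from 11), and for ZK829.1, at 0.043 without wild-type GFP- replicate 2 (-0.161 without mutant replicate 1, and down to -0.467 from 11 arrays).

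Among list medians, cilium genes stood at 0.111 with 11 arrays, 10 arrays and 5 GFP- arrays alone, -0.019 with array weights, and 0.072 and 0.123 with 11 arrays and the replicate block or quantile normalization. Body wall muscle genes stood at -0.095 in the same 3 sets of arrays, and -0.056 and -0.242 with 11 arrays and the block or quantile normalization, and cell cycle genes at 0.156, 0.162 and 0.095. Ribosomal genes fell to 0.063 with 12 arrays and 0.054 with 11 after quantile normalization. With 1 of the other GFP- arrays left out, the medians were -1.572 to -0.962 from 12 arrays and 0.124, 0.136, 0.142, 0.158 and 0.16 from 11 for cilium genes, 0.368 to 0.788 from 12 and -0.359, -0.254, -0.044, 0.00 and 0.18 from 11 for muscle genes, and 0.359 to 0.618 from 12 and 0.026, 0.091, 0.108 and up to 0.308 from 11 for cell cycle genes. Over both fits they lay between 0.271 and 0.589 for ribosomal, 0.085 and 0.291 for collagen, 0.114 and 0.371 for intestine, -0.19 and -0.034 (-0.051 and -0.034 from 11 arrays without mutant replicate 3 or wild-type replicate 2) for chemoreceptor and -0.039 and 0.582 for hypodermis genes. Except for the sets of arrays, the cause was not tested. The number of arrays, and signal near background for chemoreceptor and F-box genes, limit what can be detected.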
